A study of Mus musculus with 7 samples.

Results

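The gene for the transcription factor NRF2, well-known targets of NRF2, and genes for enzymes that remove superoxide and peroxide were followed in the mouse line Beta-TC6, which derives from a pancreatic beta-cell tumour and secretes insulin. The 10 genes (Nfe2l2, Hmox1, Nqo1, Gclc, Gclm, Srxn1, Txnrd1, Sod1, Sod2 and Gpx1) were chosen by symbol, with earlier results of these data known. All 10 were among the 23329 symbols of the count table and passed the filter on low counts. All samples are labelled wild type (WT). The 2 groups were cells given IL1B (interleukin-1 beta, an inflammatory cytokine; 3 libraries) and cells given vehicle (4 libraries). Cells of both groups grew in DMEM with 15% serum and were exposed for 1 h to forskolin at 10 µM, which raises cAMP and aligns circadian clocks. For IL1B, the sources used here give neither dose nor duration, and no harvest time. The data describe 1 tumour line, and whether replicates were separate cultures is not stated, so the p-values rest on library-to-library spread that may be technical.

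NRF2, encoded by Nfe2l2, is held in the cytoplasm and marked for degradation by KEAP1. Oxidants and electrophiles disable KEAP1, and NRF2 then enters the nucleus, pairs with a small MAF protein and binds antioxidant response elements near genes for glutathione synthesis, thioredoxin recycling, NADPH supply and heme breakdown. The repressor BACH1 competes for such elements, most clearly at Hmox1. Beta cells are known for low catalase and glutathione peroxidase activity, and Sod2 is a textbook NF-kB target in many cell types.

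Libraries held 5335607 to 7513934 counts. Levels are counts per 1e6 (CPM) after TMM scaling, and differences are tested with edgeR over 12480 genes with a Benjamini-Hochberg adjusted p under 0.05 as the threshold. All 10 beta-cell markers were expressed, with Ins2 at 21180 ± 1599 CPM in vehicle (SD, n = 4). Of these, Pdx1, Mafa, Neurod1 and Nkx2-2 were lower with IL1B (Nkx2-2 not without IL1B library 2, adjusted p = 0.0759) and 6 did not pass. Ppy, another islet hormone gene, was below the filter, with 13, 8, 10 and 2 counts in vehicle and 0, 2 and 2 with IL1B. The alpha- and delta-cell hormones Gcg and Sst stood at 312 ± 14.7 and 288 ± 20.8 CPM in vehicle and at 267 ± 39.7 and 293 ± 12.3 CPM with IL1B. Gcg was lowest in IL1B library 2 (223 CPM, edgeR adjusted p = 0.0887 over all 7 libraries), and passed as lower with total-count scaling (0.0443), with no filter (0.0075) and without IL1B library 1 (0.0234). Summed leukocyte markers lay at 3.16 to 4.54 CPM in vehicle and 3.37 to 4.81 CPM with IL1B. Summed stromal and endothelial markers lay at 4.83 to 8.46 and 5.39 to 7.65 CPM. Summed exocrine and duct markers lay at 7.43 to 10.05 and 8.60 to 10.97 CPM. Most of that last sum came from Krt7 and Sox9, while the exocrine genes Cpa1 and Prss2 had no count. Within the stromal and endothelial list, and below the filter, Pecam1 had 3 to 6 counts in vehicle and 9 to 17 with IL1B, while Col3a1 had 1 to 3 and 0. The part of these markers in the results was not tested. The cytokine response was present in every IL1B library: Nfkbia, the NF-kB feedback inhibitor, was at 460 to 496 CPM against 29.5 to 33.0 in vehicle, and Tnfaip3 rose 17.7-fold. The second vehicle library stood apart from the other 3. Over 11266 genes (not independent replicates), its deviation from the vehicle mean had a Spearman rho of -0.56 with transcript length, against 0.222 to 0.307 in the others. Each library is part of that mean, so a trend in 1 library pushes the others the opposite way. In IL1B libraries 1, 2 and 3, against their own mean, rho was -0.022, 0.02 and -0.006. The second IL1B library also differed most within its group, with a chi-square per degree of freedom of 4.20 and 2.87 against the other IL1B libraries and 1.69 between those.

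IL1B was followed by higher transcripts of 4 of the 10 genes. Hmox1 rose 1.61-fold, Gclc 1.23-fold, Txnrd1 1.17-fold and Srxn1 1.15-fold, and these were the 4 whose IL1B libraries all lay above all vehicle libraries. Nfe2l2 itself, Nqo1, Gclm, Sod1, Sod2 and Gpx1 did not pass. None of the 10 was called lower, whether by edgeR, by limma-voom or by DESeq2, and none had an unadjusted edgeR p under 0.05 for a decrease. Among all tested genes 11.0% were called, 7.76% higher and 3.25% lower, and decreases were 2.23% with DESeq2 and 3.09% with limma-voom. An unadjusted edgeR p under 0.05 for a decrease was found in 9.62%. With such shares, the absence of a decrease among 10 genes says little. IL1B libraries were all above vehicle for 12.1% of tested genes and all below for 8.83%. The median log2 fold change was 0.12 over the 10 genes and -0.0087 over all tested genes. Since RNA was measured in bulk, more RNA per cell and more cells that express a gene cannot be told apart.

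**Figure D1:**
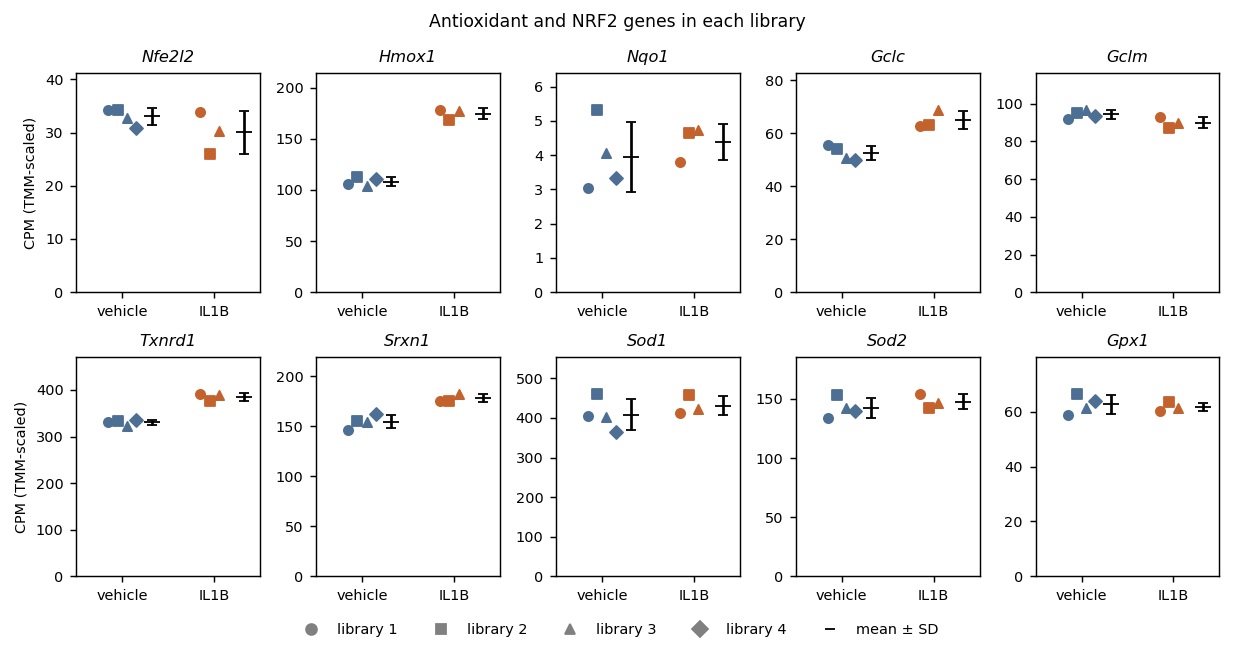
CPM (vertical axis, from 0, TMM-scaled) of each of the 10 genes in the 4 vehicle (blue) and 3 IL1B libraries (orange); marker shape gives the library number and black bars the mean ± SD. The orange points lie above all blue points for Hmox1, Gclc, Txnrd1 and Srxn1 and overlap them for the other 6 genes.

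**Figure D2:**
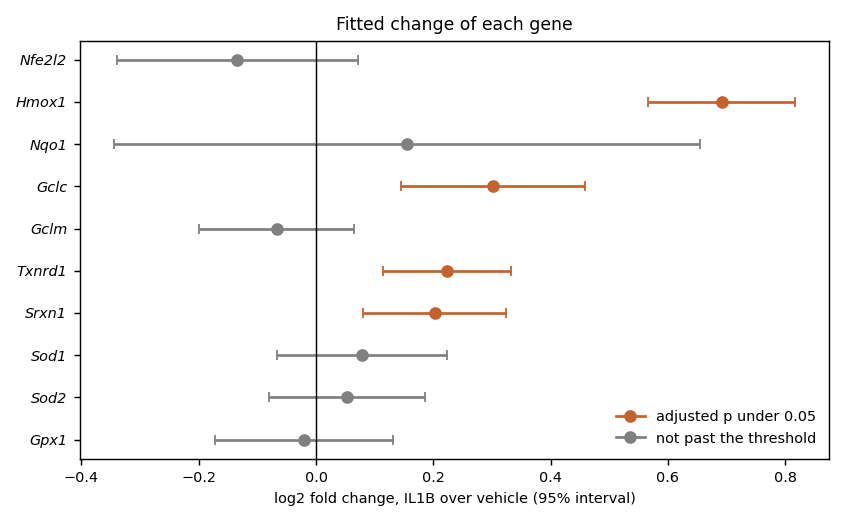
Fitted log2 fold change of IL1B over vehicle (horizontal axis) with its 95% interval for each of the 10 genes, in orange where the adjusted p was under 0.05. Hmox1 stands at 0.69, the other orange points between 0.20 and 0.30, and the interval of Nqo1, the least abundant gene, is the widest.

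The regulator gene Nfe2l2 lies on the minus strand of chromosome 2 (75675513 to 75704641, GRCm38). Its vehicle libraries held 34.2, 34.3, 32.8 and 30.8 CPM and its IL1B libraries 33.9, 25.9 and 30.4 CPM. IL1B libraries 2 and 3 were the lowest of the 7, while the first lay inside the vehicle range, so the groups overlapped. The edgeR adjusted p was 0.468 and the log2 change -0.13 (SE 0.10), with a 95% interval from -0.34 to 0.07. An increase above 1.05-fold or a decrease beyond 1.27-fold lay outside that interval. Without IL1B library 1 the log2 change was -0.24 (adjusted p = 0.189), and without IL1B library 2 it was -0.04 (0.899). NRF2 is controlled mainly through its protein, which these libraries do not measure.

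Hmox1 encodes heme oxygenase-1, which breaks heme into biliverdin, iron and carbon monoxide, and lies on chromosome 8 (75093621 to 75100589, plus strand). Its vehicle libraries held 105.6, 112.7, 103.5 and 111.0 CPM and its IL1B libraries 178.5, 168.6 and 177.0 CPM. The lowest IL1B library was well above the highest vehicle library, and the spread within each group was small beside the gap. The level went from 108 ± 4.39 (SD, n = 4) to 175 ± 5.35 CPM (SD, n = 3), with edgeR adjusted p = 6.21e-08 and a log2 change of 0.69 (SE 0.06). By p-value it ranked 132nd of the 12480 tested genes.

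Nqo1 encodes NAD(P)H quinone dehydrogenase, a classic NRF2 target that reduces quinones in a single step. It was close to the lower end of what these libraries can measure, with 23, 34, 23 and 18 counts in the vehicle libraries and 26, 28 and 28 with IL1B. In CPM this was 3.94 ± 1.02 (SD, n = 4) against 4.39 ± 0.521 (SD, n = 3), with overlapping groups. The highest value of all 7 libraries, 5.32 CPM, was in the second vehicle library. The edgeR adjusted p was 0.772, the log2 change was 0.15 (SE 0.24), and the 95% interval ran from 0.788-fold to 1.57-fold. A change as large as that of Gclc lay inside this interval and was not detectable at this depth.

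Gclc and Gclm encode the catalytic and the modifier subunit of glutamate-cysteine ligase, the rate-limiting enzyme of glutathione synthesis. Gclc (chromosome 9, 77754535 to 77794485) was at 55.4, 53.9, 50.6 and 49.9 CPM in vehicle and at 62.8, 63.0 and 68.8 CPM with IL1B. All IL1B libraries were above all vehicle libraries, with the third the highest (edgeR adjusted p = 0.00993, log2 change 0.30 with SE 0.07). Gclm (chromosome 3, 122245557 to 122270732) was at 91.6, 95.05, 96.8 and 93.6 CPM in vehicle and at 93.0, 87.1 and 89.6 CPM with IL1B. Here 2 of 3 IL1B libraries were below every vehicle library and the first was inside the vehicle range (edgeR adjusted p = 0.593, log2 change -0.07 with SE 0.06).

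The subunits could be set against each other within a library, which removes library scaling. Gclc counts per Gclm count were 0.605, 0.567, 0.523 and 0.534 in the vehicle libraries and 0.676, 0.723 and 0.768 in the IL1B libraries, without overlap. The ratio was 1.30-fold higher with IL1B, and an exact 2-sided permutation test of its log2 value gave p = 0.0571, the smallest that 3 against 4 libraries allow. This ratio was chosen after the values of both genes had been seen.

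**Figure D3:**
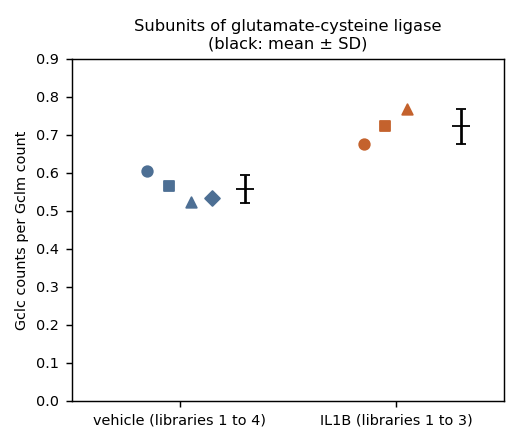
Gclc counts divided by Gclm counts in each library (vertical axis, from 0), with marker shape for the library number and black bars for mean ± SD. The 3 IL1B libraries (0.676 to 0.768) lie above the 4 vehicle libraries (0.523 to 0.605).

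Both thioredoxin-branch genes rose, Txnrd1 1.17-fold and Srxn1 1.15-fold. Txnrd1 encodes cytosolic thioredoxin reductase, a selenoprotein that uses NADPH to recycle thioredoxin, and lies on chromosome 10 (82833951 to 82897712). Its vehicle libraries were tightly grouped at 330, 333, 323 and 336 CPM, and its IL1B libraries stood at 392, 376 and 389 CPM. The gap between groups exceeded the range within each (edgeR adjusted p = 0.00657, log2 change 0.22 with SE 0.05). Srxn1 encodes sulfiredoxin, which repairs over-oxidised peroxiredoxins, and lies on chromosome 2 (152105516 to 152111376). It was at 147, 156, 154 and 162 CPM in vehicle and at 176, 175 and 182 CPM with IL1B. The groups did not overlap, but the highest vehicle library was near the lowest IL1B library (edgeR adjusted p = 0.0292, log2 change 0.20 with SE 0.06). Its call was lost with upper-quartile scaling (adjusted p = 0.0643) and with total-count scaling (adjusted p = 0.0723).

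Promoter windows from RefSeq (GRCm38.p6), 250 bases before to 50 after a gene's start, were available for 8 of the 10 genes, with 3 windows for Txnrd1. Hmox1 and Gclc had no window. The antioxidant response element core TGACNNNGC was searched on both strands. It matched in 5 of the 10 windows, those of Nfe2l2, Gclm, Srxn1, Txnrd1 (1 of its 3 windows) and Sod1. The core was in 12.4% of all 32851 windows and in 14.6% of the windows of tested genes. Matches therefore occurred both in genes that rose (Srxn1, Txnrd1) and in genes that did not pass (Nfe2l2, Gclm, Sod1), and a match is not evidence of a site in use. The kappaB consensus matched only in the window of Sod2 among the 8 genes, 83 bases before the start. It was in 4.51% of all windows and in 5.35% of the windows of tested genes. Srxn1 also held TGAGTCAGC, an AP-1-like site that NRF2 and BACH1 with small MAF proteins are known to bind, 45 bases before its start. That motif was added after the sequences had been seen, and was in 0.414% of all windows. Its partner form TGACTCAGC, which is also a match to the core, was in 0.454% of all windows and in none of the 8 genes. Srxn1 and Txnrd1, which rose, and Gclm, which did not pass, are shown for comparison. Each is the 250 bases before the start, read 5′ to 3′ on the gene's strand (plus for all 3), with matches in capitals. They cover chr2:152105274-152105523, chr10:82858956-82859205 and chr3:122245307-122245556.
Srxn1: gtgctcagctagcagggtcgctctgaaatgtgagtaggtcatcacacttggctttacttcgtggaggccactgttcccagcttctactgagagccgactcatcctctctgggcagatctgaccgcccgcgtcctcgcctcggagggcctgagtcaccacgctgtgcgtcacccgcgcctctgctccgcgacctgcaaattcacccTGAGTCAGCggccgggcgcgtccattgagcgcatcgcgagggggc
Txnrd1: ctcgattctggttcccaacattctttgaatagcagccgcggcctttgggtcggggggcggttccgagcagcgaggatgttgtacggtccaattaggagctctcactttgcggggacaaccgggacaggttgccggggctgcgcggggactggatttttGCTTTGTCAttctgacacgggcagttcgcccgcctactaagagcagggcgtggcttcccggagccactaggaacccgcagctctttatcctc
Gclm: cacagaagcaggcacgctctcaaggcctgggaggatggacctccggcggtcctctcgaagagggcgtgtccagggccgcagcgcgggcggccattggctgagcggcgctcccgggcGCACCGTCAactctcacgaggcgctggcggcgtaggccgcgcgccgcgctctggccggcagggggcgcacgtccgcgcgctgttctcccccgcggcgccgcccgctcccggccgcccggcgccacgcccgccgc
In Srxn1 the capitals are the AP-1-like site, and its match to the core lies 28 bases after the start, outside the printed stretch. In Txnrd1 and Gclm the capitals are the core on the opposite strand, beginning 92 and 134 bases before the start.

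The superoxide and peroxide enzymes did not pass. Sod1 encodes the cytosolic copper-zinc superoxide dismutase and had 405, 461, 403 and 365 CPM in vehicle and 413, 458 and 423 CPM with IL1B. The second library of each group was the highest of its group, and the ranges overlapped throughout (edgeR adjusted p = 0.566, log2 change 0.08 with SE 0.07). When single libraries were left out the log2 change ranged from 0.03, without vehicle library 4 (adjusted p = 0.882) or IL1B library 2 (0.892), to 0.14 without vehicle library 2 (0.0977). Its transcript is the shortest of the 10 (641 bases). In the annotation Sod1 overlaps Scaf4 on the other strand by 650 bases, and 72.5% of its transcript is shared at 95% identity or more with Gm8566, so its counts could include reads of either.

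Sod2 encodes the mitochondrial manganese superoxide dismutase. It was at 134, 154, 142 and 140 CPM in vehicle and at 154, 142 and 146 CPM with IL1B, with the IL1B libraries inside or within 1 CPM of the vehicle range. The edgeR adjusted p was 0.693, the log2 change was 0.05 (SE 0.06), and the 95% interval ran from 0.946-fold to 1.14-fold. Nfkbia rose 15.4-fold in the same libraries. Gpx1 encodes the cytosolic glutathione peroxidase, which reduces peroxide with glutathione, and was at 58.8, 66.6, 61.4 and 63.9 CPM in vehicle and 60.3, 63.5 and 61.4 CPM with IL1B. All IL1B values of Gpx1 fell inside the vehicle range, and the interval ran from 0.888-fold to 1.10-fold (edgeR adjusted p = 0.915, log2 change -0.02 with SE 0.07). Its sign turned to 0.01 without the second vehicle library.

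Per length, the order of the levels in vehicle was led by Sod1. As CPM per kilobase of the longest coding transcript, Sod1 stood at 637 ± 61.9 (SD, n = 4), Txnrd1 at 91.2 ± 1.55, Hmox1 at 69.0 ± 2.80, Gpx1 at 58.5 ± 3.09 and Srxn1 at 55.0 ± 2.23. Lower came Sod2 at 24.3 ± 1.39, Gclm at 16.9 ± 0.392, Gclc at 15.3 ± 0.764, Nfe2l2 at 13.4 ± 0.658 and Nqo1 at 2.54 ± 0.657. The vehicle ranges of Gpx1 and Srxn1 overlapped (54.9 to 62.1 and 52.1 to 57.6), and no other neighbours in this order did. With IL1B, Hmox1 reached 111 ± 3.41 (SD, n = 3) and stood above Txnrd1 (107 ± 2.29), although their ranges overlapped (107 to 114 and 104 to 108). Gclc, at 19.0 ± 1.00, stood above Gclm, at 16.1 ± 0.526, without overlap. The order between genes rests on the annotated length (3423 bases for Gclc, 5589 for Gclm), and which transcripts were present was not measured. In CPM, Gclm was above Gclc both in vehicle (94.3 against 52.5) and with IL1B (89.9 against 64.9).

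Dependence on single libraries differed between the 4 genes that rose. Hmox1 kept its call in each of 15 alternative fits, with 1.58-fold to 1.67-fold and adjusted p up to 3.13e-06. Gclc and Txnrd1 each kept it in 14 of 15, and the exception for both was the fit without IL1B library 3. There Gclc had a log2 fold change of 0.26 (edgeR adjusted p = 0.0811) and Txnrd1 of 0.22 (edgeR adjusted p = 0.0504). Srxn1 kept its call in 9 of 15. Besides the scalings above, it lost it without vehicle library 1 (adjusted p = 0.118) or 3 (0.0763) and without IL1B library 1 (0.0645) or 3 (0.154). Without IL1B library 3 the count was therefore 1 of 10, Hmox1, where 6.09% of all tested genes were called higher. With upper-quartile and total-count scaling it was 3 of 10, against 6.99% and 6.76% of all tested genes. With library 2 of both groups left out together all 4 passed (9.36% of all tested genes higher), at 1.67-fold for Hmox1, 1.26-fold for Gclc, 1.19-fold for Txnrd1 and 1.16-fold for Srxn1. The direction of each of the 4 was upward in all 15. The other 6 genes were called in none of the 15, where log2 changes ranged from -0.24 to -0.02 for Nfe2l2, 0.03 to 0.34 for Nqo1, -0.10 to -0.04 for Gclm, 0.03 to 0.14 for Sod1, 0.02 to 0.12 for Sod2 and -0.05 to 0.01 for Gpx1.

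**Figure D4:**
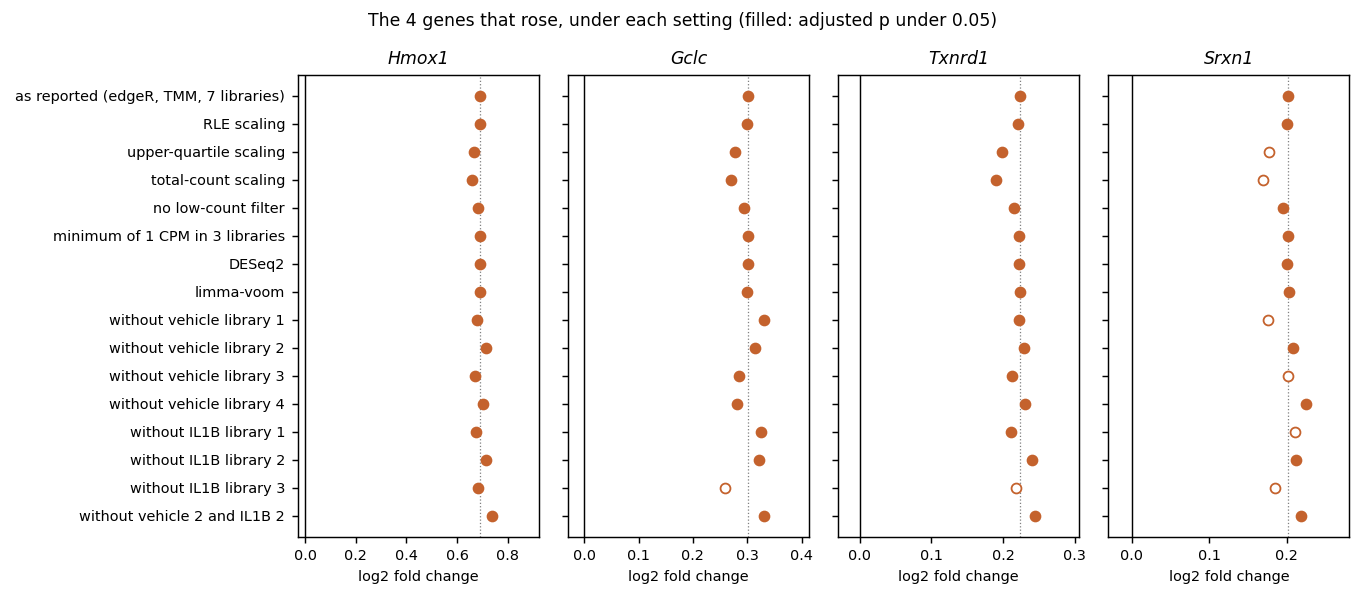
Log2 fold change (horizontal axis) of the 4 genes that rose, under the reported fit and each of 15 alternatives (rows); filled points have an adjusted p under 0.05. Hmox1 is filled in every row, Gclc and Txnrd1 are open only without IL1B library 3, and Srxn1 is open in 6 rows.

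Among the genes that control or partner NRF2, the small MAF genes, Sqstm1 and Nfe2l1 rose. Of 11 measured regulators and partners 5 rose and none fell (DESeq2 and limma-voom gave the same counts, and 7 and 0 had an unadjusted edgeR p under 0.05), with a median log2 fold change of 0.36. Over all tested genes 7.76% were called higher and 3.25% lower by edgeR. The shares were 6.67% and 2.23% by DESeq2 and 7.69% and 3.09% by limma-voom. At an unadjusted edgeR p under 0.05 they were 13.0% and 9.62%. Maff, a small MAF protein that pairs with NRF2 or BACH1, was at 31.6 to 41.2 CPM in vehicle and at 242, 262 and 234 CPM with IL1B, a 6.82-fold rise (edgeR adjusted p = 1.17e-15). The other small MAF genes rose less, Mafk 1.56-fold (from 16.3 ± 0.877 to 25.4 ± 1.26 CPM) and Mafg 1.42-fold (59.7 ± 3.73 to 85.0 ± 5.37 CPM). Sqstm1, which encodes p62, an autophagy receptor that binds KEAP1, went from 743 ± 26.3 to 1132 ± 91.1 CPM, 1.52-fold, and was highest in the second IL1B library (1237 CPM). Nfe2l1, the NRF2 relative that controls proteasome genes, rose 1.31-fold. Keap1 was at 82.9 ± 4.81 and 89.5 ± 2.03 CPM (edgeR adjusted p = 0.357). Bach1 was at 36.0 to 41.1 CPM in vehicle and at 51.7, 46.4 and 41.3 CPM with IL1B, just apart (edgeR adjusted p = 0.0852, log2 change 0.25 with SE 0.09), and passed without IL1B library 3 (adjusted p = 0.0385). Without IL1B library 1 its log2 change was 0.16 (adjusted p = 0.322). The related repressor gene Bach2 did not pass (edgeR adjusted p = 0.134, and 0.0498 without IL1B library 1), nor did the ligase genes Cul3, Rbx1 and Btrc.

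Genes of glutathione and NADPH supply were mixed: 5 of 17 measured rose and 1 fell (7.76% and 3.25% over all tested genes), with a median log2 fold change of -0.02. Slc7a11, the cystine importer that feeds glutathione synthesis, was at 30.4, 32.7, 38.8 and 37.7 CPM in vehicle and 46.5, 59.5 and 49.3 CPM with IL1B, a 1.49-fold rise (edgeR adjusted p = 5.42e-04). Abcc1, an exporter of glutathione conjugates, rose 1.77-fold. The NADPH-producing enzyme genes Pgd and Me1 rose 1.36-fold and 1.33-fold. Chac1, whose product degrades glutathione, rose 2.03-fold, from 28.4 ± 2.91 to 57.9 ± 2.02 CPM. Idh1, a further source of NADPH (named after its value was seen), fell from 109 ± 4.56 to 92.9 ± 0.602 CPM (edgeR adjusted p = 0.0211). Idh1 did not pass in 5 of the 7 fits that left out 1 library: without vehicle library 1 (0.0771) or 3 (0.06), or without IL1B library 1 (0.0619), 2 (0.0553) or 3 (0.0809). G6pdx, Tkt, Taldo1, Gsr, Gss and Slc3a2 were among the 11 that did not pass.

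Heme, iron and quinone genes other than Hmox1 did not pass. None of 12 was called by edgeR, DESeq2 or limma-voom, and 1 had an unadjusted edgeR p under 0.05. Over all tested genes edgeR called 7.76% higher and 3.25% lower, and 13.0% and 9.62% passed at that unadjusted p. The shares were 6.67% and 2.23% with DESeq2 and 7.69% and 3.09% with limma-voom. Groups did not overlap for 3 of the 12, beside 12.1% (higher) and 8.83% (lower) of all tested genes. At such shares a list of 12 would hold few calls, so their absence says little. The list included the biliverdin reductases Blvra and Blvrb, the ferritin chains Fth1 and Ftl1, and Hmox2, the constitutive heme oxygenase (59.1 ± 2.34 and 63.0 ± 5.59 CPM). Among the remaining peroxide, superoxide and thioredoxin genes 2 of 25 rose and 1 fell, shares (8.0% and 4.0%) near those over all tested genes (7.76% and 3.25%). Txnip, the thioredoxin inhibitor that responds to glucose in beta cells, was at 125 to 136 CPM in vehicle and 178.5, 162.6 and 165.7 CPM with IL1B, 1.28-fold higher (edgeR adjusted p = 3.87e-04). Sesn2, a stress-induced sestrin, rose 1.27-fold. It did not pass when IL1B library 2 was left out (adjusted p = 0.0832) or when both second libraries were (0.0596). Glrx, which encodes glutaredoxin, fell from 104 ± 9.60 to 77.6 ± 9.68 CPM (edgeR adjusted p = 0.00244, log2 change -0.42 with SE 0.09). With library 2 of both groups left out its log2 change was -0.26 (adjusted p = 0.00451).

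The peroxiredoxins and catalase did not pass in the reported fit. Prdx1, a cytosolic peroxiredoxin, went from 379 ± 12.1 to 373 ± 8.63 CPM (edgeR adjusted p = 0.869). Prdx3, the mitochondrial peroxiredoxin (named after its value was seen), went from 128 ± 10.9 to 111 ± 2.84 CPM (edgeR adjusted p = 0.0686). It passed as lower with upper-quartile scaling (0.0396), total-count scaling (0.0294), no filter (0.0325) or without vehicle library 3 (0.0192). Gpx4, which reduces lipid peroxides, went from 150 ± 18.6 to 148 ± 12.4 CPM (edgeR adjusted p = 0.926). Cat, which encodes catalase, was low, at 9.28 to 11.6 CPM in vehicle and 8.74, 9.97 and 4.72 CPM with IL1B (edgeR adjusted p = 0.245). Of 18 genes for sources of superoxide, peroxide and nitric oxide only 4 passed the filter. Among these Ero1lb, an oxidase of protein folding that makes peroxide, rose 1.15-fold. No decrease was called with any of the 3 tools, nor was any unadjusted edgeR p for a decrease under 0.05. Over all tested genes 3.25% were called lower by edgeR, 2.23% by DESeq2 and 3.09% by limma-voom. At that unadjusted p 9.62% were lower. With such shares, the absence of a decrease among 4 genes says little. The NADPH oxidase genes Nox1, Nox4 and Cybb had 0 to 5 counts per library. Nos2, the inducible nitric oxide synthase, had 0, 1, 0 and 0 counts in vehicle and 6, 2 and 2 with IL1B and was not tested. Over the 5 lists together 13 of 69 tested genes rose (18.8%) and 2 fell (2.9%), beside 7.76% and 3.25% over all tested genes. The lists were chosen with earlier results of these data known, so these shares are a description only.

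**Figure D5:**
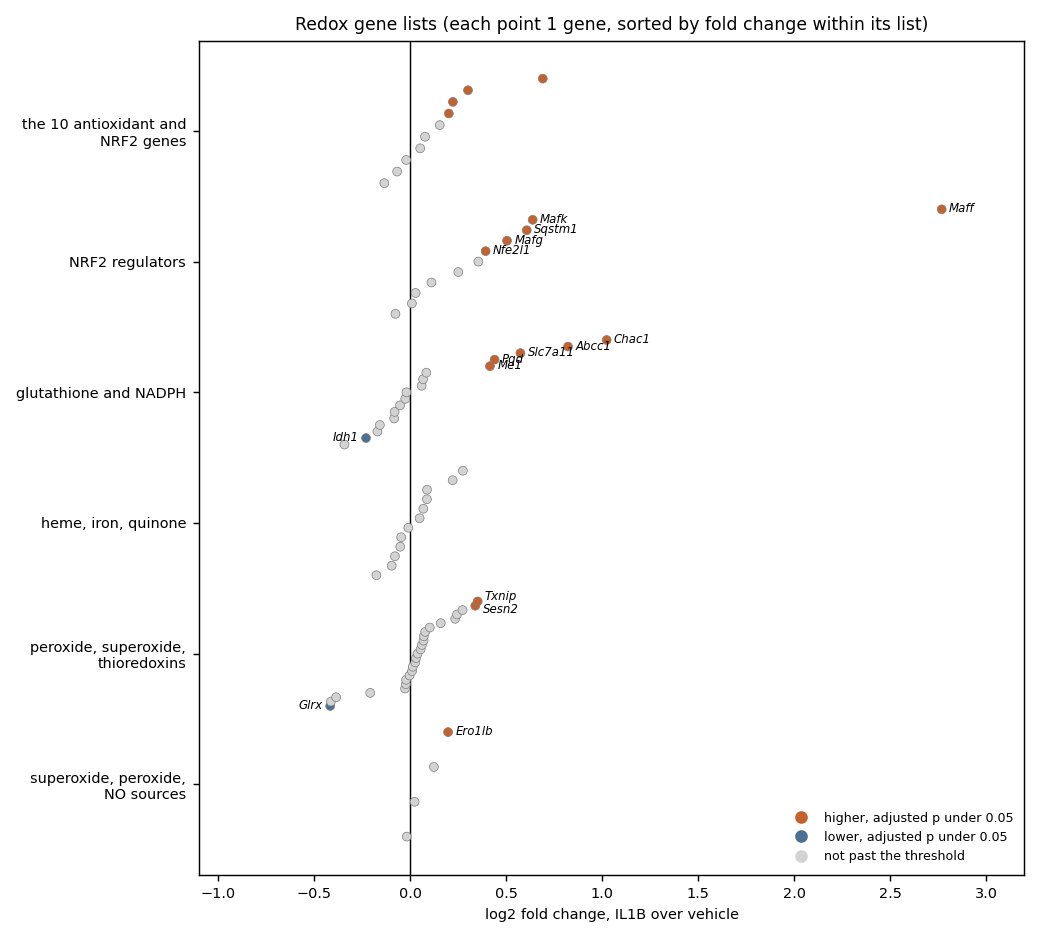
Log2 fold change of IL1B over vehicle (horizontal axis) for the 10 genes and for the tested genes of 5 wider redox lists, each point 1 gene; orange and blue mark increases and decreases with an adjusted p under 0.05. Maff stands far to the right at 2.77, and the heme, iron and quinone list holds no called gene.

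The genes whose pattern was most like that of a gene that rose were found by the root mean square difference over the 7 libraries of log2 CPM relative to each gene's own vehicle mean. The search covered 10893 genes whose mean level reached 5 CPM, and the difference is in log2 units. For Hmox1 the closest were Btg1 (0.04), Smad1 (0.04) and Degs1 (0.04), which rose 1.60-fold to 1.64-fold. For Txnrd1 they were Mcl1 (0.03), Rab35 (0.03) and Brd2 (0.03). For Srxn1 they were Shcbp1 (0.02), Nqo2 (0.03) and Ube2d2 (0.03), and for Gclc Gm16039 (0.04), Slc31a2 (0.05) and Cdc37 (0.05). Of these, Nqo2 (edgeR adjusted p = 0.169) and Slc31a2 (0.11) did not pass. All points share the same 7 libraries and the same group difference, so this is a description only.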

How the data were processed

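Polyadenylated RNA of 7 Beta-TC6 libraries was measured. Raw counts by gene symbol were deposited as a single table, and no other column of per-sample values was present. Per the submitters' processing notes, the build was mm10, and the tools named, with no roles, include STAR, RSEM and DESeq2. The sources used here give no aligner, counter, annotation or strand setting for this table, so reads of overlapping genes or copies may be shared. Besides Sod1, this covers Txnrd1 and Gclm (gene spans, introns included). Txnrd1 overlaps Gm38560 on the other strand by 13276 bases and Eid3 on the same strand by 1305 (29 counts over the 7 libraries). Gclm overlaps Gm17494 on the other strand by 14775 bases and Gm6061 on the same strand by 492. Vehicle columns match the titles. IL1B columns are numbered 1 to 3 and their titles 1, 3 and 4, so they were assigned to the group only and keep the table's numbers.

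Counts were analysed with edgeR 4.0.16 in R 4.3.3: TMM scaling, filterByExpr (12480 genes), and a quasi-likelihood F test without covariates. The SE is the log2 change divided by the root of F, and 95% intervals use its degrees of freedom. On simulated counts for 12376 genes of this comparison, 15.8% of genes changed 1.2-fold, 81.9% changed 1.5-fold and 98.6% changed 2-fold were recovered, with 8.0% false calls. Changes of 1.2-fold were thus mostly missed in that simulation. It changed 200 genes drawn from all genes at 5 CPM or more, fewer than the 1374 called in the data. Its recovery at 1.2-fold is therefore not a rate for Gclc, Txnrd1 or Srxn1 themselves. Alternatives were DESeq2 1.42.0, limma-voom (limma 3.58.1), scaling by RLE, upper quartile or total count, a 1 CPM minimum in 3 libraries, no filter, leaving out each library, and leaving out the second library of both groups. Replicate pairs had a chi-square per degree of freedom of 1.52 to 4.88, above sampling noise, so no 2 were counted as 1 sample. The pairs with vehicle library 2 (3.82 to 4.88) exceeded the other vehicle pairs (1.52 to 1.60). Coordinates are from GENCODE M21 (GRCm38, the assembly of mm10), and copies were sought with blastn 2.17.0. The exact permutation test used scipy 1.17.1. All 90 symbols of the 5 wider lists were in the table (Msrb1 as Sepx1). The 10 genes, the lists and the tests were chosen with earlier results of these data known. By rule, named genes are the 10, up to 5 called genes of each list by adjusted p, and the 3 genes most like each gene that rose. The rule also named Keap1, Bach1, Maff, Slc7a11, Cat, Txnip, Prdx1, Gpx4, Nos2, Nfkbia and Tnfaip3. Values are also given for cell-type markers and for Bach2, Hmox2, Idh1, Prdx3, Nox1, Nox4 and Cybb, which fall outside that rule.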

Additional observations from a re-analysis of the deposited data

Results flagged for a closer look

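Among the vehicle libraries, the third stood far from the other 3 for Txnip, at 125.2 CPM against 134.2 to 135.5 CPM (Dixon's test). This was the only such case among 55 groups of vehicle values, where chance gives about 1 in 20, or 2.75. None of the 10 antioxidant and NRF2 genes was among them. The IL1B group, with 3 libraries, was not tested this way.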

How the results depend on the processing

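No paired analysis was possible because the numbers of the IL1B columns do not match those of the IL1B titles. Of the 10 genes, 4 passed in the reported fit, 3 with total-count or upper-quartile scaling, and 1 to 4 when single libraries were left out. The count of 1 came without IL1B library 3, and the cause was not tested. Over the wider lists 13 to 17 genes passed when single libraries were left out, 12 to 15 of them higher and 1 to 2 lower. Over all tested genes 1021 to 1717 passed when single libraries were left out (769 to 1128 higher and 252 to 589 lower, against 406 lower in the reported fit), the lowest without IL1B library 3 and the highest without the second vehicle library. Without the second library of both groups 676 genes were lower, and the cause was not tested. Increases made up 70.5% of calls with TMM and 60.3% with total-count scaling (844 higher and 556 lower). The lower genes of the wider lists went from 2 to 3 (Prdx3 added) with upper-quartile scaling, total-count scaling or no filter. For 54 genes (the tested genes given with a level, fold or adjusted p, the beta-cell markers that fell, and the 12 most alike) no call reversed in 810 refitted values, while 54 lost and 11 gained one, 38 of the losses among the genes most alike. Low counts limit Nqo1, and left Nos2, Nox1, Nox4 and Cybb untested.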
